A study of Homo sapiens with 4 samples.

Results

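The homologous recombination and Fanconi anemia genes were followed in TU-177 cells, a line from a laryngeal squamous cell carcinoma (LSCC), after knockdown of SKA3, a subunit of the complex that holds kinetochores to spindle microtubules. The set was a list of 36 genes matched by Ensembl identifier to the rows of an expression table of 28729 genes, and all 36 were found there. The list covered recombination, repair of crosslinks between the DNA strands and the damage checkpoints, and membership used no measured value, although the list was drawn up with earlier results of these data known. Both groups were TU-177 cells transduced with a lentivirus and kept in puromycin: the NC group carried a negative control shRNA and the SKA3-KD group an shRNA against SKA3, with 2 libraries each, named by group and replicate number. The time from transduction to harvest was not given in the sources used here. Each group was a puromycin-resistant population of 1 cell line, and the labels name neither the number of shRNA sequences nor separate cultures behind the replicates, so the p-values measure only the spread between these samples, which may be technical. The labels give lentiviral shRNA with puromycin, a method that the study's supplementary methods also describe, beside a guide RNA and Cas9 route to stable SKA3 knockdown, and the labels were followed.

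Homologous recombination repairs a broken DNA molecule by copying an intact one. The ends are first trimmed to single strands by nucleases, these strands are coated and led to the intact copy with the help of BRCA2, PALB2 and XRCC3, and the joined molecules that follow are taken apart or cut by BLM, MUS81 and SLX4. The Fanconi anemia pathway detects crosslinks at stalled replication forks and attaches ubiquitin to FANCD2 and FANCI, which leads to cutting of the crosslink and its repair by recombination. The kinases ATM and ATR signal the damage to CHEK2 and CHEK1. Many of these genes are transcribed mainly in the S and G2 phases of the cell cycle.

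In these 4 libraries the set as a whole stayed close to the level of the NC cells, and few of its genes differed between the groups. NBN, a subunit of the complex that senses broken ends, was lower in SKA3-KD by a call close to the threshold that several other settings did not give. SLX4 and BLM, which process joined DNA molecules, had higher values in both SKA3-KD libraries, and BARD1, the partner of BRCA1, had lower values in both, but these 3 differences passed the adjusted threshold in a test on recovered reads and did not pass it in the main test, on FPKM (fragments per kilobase of transcript, scaled to the number of mapped reads). Upstream sequence is shown for these 3 genes, the members whose call depended on the test. Each line gives the 250 bases before the start annotated by RefSeq on GRCh38.p14, 5′ to 3′ on the strand of the gene, with CCAAT boxes in capitals. BARD1 reads from chr2:214809684-214809933 on the minus strand, BLM from chr15:90717096-90717345 on the plus strand and SLX4 from chr16:3611607-3611856 on the minus strand.
BARD1: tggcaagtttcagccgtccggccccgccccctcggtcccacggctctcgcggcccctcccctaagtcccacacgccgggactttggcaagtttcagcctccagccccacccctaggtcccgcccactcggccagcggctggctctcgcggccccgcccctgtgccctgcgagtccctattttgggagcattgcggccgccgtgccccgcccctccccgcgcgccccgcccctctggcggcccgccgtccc
BLM: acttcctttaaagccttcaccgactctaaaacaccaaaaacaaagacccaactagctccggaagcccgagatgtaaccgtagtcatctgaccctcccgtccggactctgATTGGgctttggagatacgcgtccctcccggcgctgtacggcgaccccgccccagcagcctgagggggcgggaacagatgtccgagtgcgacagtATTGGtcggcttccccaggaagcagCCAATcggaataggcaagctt
SLX4: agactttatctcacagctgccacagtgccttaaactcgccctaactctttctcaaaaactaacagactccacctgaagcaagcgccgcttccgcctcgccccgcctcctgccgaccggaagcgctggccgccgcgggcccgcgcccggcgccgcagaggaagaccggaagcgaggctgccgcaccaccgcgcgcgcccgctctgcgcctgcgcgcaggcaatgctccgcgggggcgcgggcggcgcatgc
The motif classes below were searched on both strands, and the counts use longer windows, from 250 bases before to 50 bases after each start. A gene was counted when any of its windows held a word. Windows were matched for 33 of the 36 members, leaving FANCI, RAD54B and NBN. The CCAAT box (CCAAT), a site known to bind the factor NF-Y in cell cycle promoters, was found in 14 members (42.4%), against 43.6% of the 8946 tested genes with a window. In BLM it begins 141, 46 and 21 bases before the RefSeq start, the first and second on the opposite strand and the last on the strand shown. The words TTTGAA and TTCGAA of the cell cycle homology region were found in 4 members (12.1%: BRIP1, FANCC, UBE2T and ATM), against 15.0% of those genes. The E2F words TTTCCCGC, TTTGGCGC, TTTCGCGC and TTTGCCGC were found in 6 members (18.2%: XRCC2, FANCA, FANCC, FANCD2, EXO1 and TOPBP1), against 6.82%. BARD1 and SLX4 held none of the words searched. These matches describe letters in a window, and binding was not measured.

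The library sizes that scaled the FPKM values, recovered from those values, were 9015056 to 11966130 reads. The reads recovered on genes summed to 9197356 to 12331504, more than the recovered library size in every library. SKA3 itself had 9.40 and 9.64 FPKM in NC and 3.77 and 4.12 FPKM in SKA3-KD (replicates 1 and 2 in turn), and the mean fell by 58.6% (limma log2 fold change -1.09, SE 0.07, adjusted p = 0.00806, n = 2 per group). Without NC 1 the adjusted p was 0.0689, and without any other library it stayed under the threshold. On defining markers, the squamous list was mixed: KRT5 and KRT14, the defining basal keratins, were at or near 0 in every library, TP63 did not exceed 0.58 FPKM and CDH1 did not exceed 0.447 FPKM, and 3 of 8 squamous markers had a mean of at least 1 FPKM. These 3 were DSP at 65.8 to 68.7 FPKM, EPCAM at 2.73 to 2.95 FPKM and KRT17, which fell from 45.6 and 49.1 FPKM to 29.4 and 35.7 FPKM (limma log2 fold change -0.53, adjusted p = 0.0396). The summed squamous markers were 116 to 119 FPKM in NC and 99.5 to 108 FPKM in SKA3-KD. Of 6 fibroblast markers 3 had a mean of at least 1 FPKM, and their sum was 15.4 to 15.8 FPKM in NC and 8.86 to 9.56 FPKM in SKA3-KD, with DCN at 8.40 and 8.36 against 2.48 and 2.35 FPKM, while COL1A2 and LUM were at or near 0. PDGFRB went the other way, with 2.88 and 2.46 against 3.19 and 4.13 FPKM (adjusted p = 0.165 in limma on FPKM, 0.0251 in voom). None of the immune and endothelial markers in the table had a mean of 1 FPKM. The sums of the squamous and fibroblast markers moved with the groups, and their part in the differences below was not tested.

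Over the 35 members tested (mean of at least 1 FPKM over the 4 libraries), 1 member was lower in SKA3-KD and 0 were higher at an adjusted p under 0.05 (limma on log2(FPKM + 1), Benjamini-Hochberg over 12645 genes). The single lower call is 2.86% of the members, against 6.11% of all genes tested called lower, and 6.16% of all genes were called higher. At an unadjusted p under 0.05 there were 6 members, 2 lower and 4 higher, or 17.1% of those tested against 31.3% of all genes. In limma voom on the recovered reads 2 members were lower (BARD1 and NBN, 5.71%, against 13.4% of all genes) and 2 were higher (BLM and SLX4, 5.71%, against 13.0%). The values of the groups did not overlap for 5 members that were lower in SKA3-KD (14.3%, against 29.2% of all genes) and for 15 that were higher (42.9%, against 32.3%), and they overlapped for the other 15. The share called in either direction was below the share over all genes in both tests, on counts of only 0 to 2 members. The share that was higher without overlap was above the share over all genes. With 2 libraries in each group an exact permutation test of a single gene cannot go below p = 0.333.

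The fold changes of the members were small. Their median log2 fold change, SKA3-KD minus NC, was 0.04 (0.01 over all genes tested), with a range of -0.33 to 0.40, and 23 were positive and 12 negative. The median absolute log2 fold change was 0.10 for the members and 0.17 for all genes, and 29 of the 35 members were under 0.2. Taken by library, the median deviation of the members from the NC mean was 0.08 and 0.03 in the SKA3-KD replicates 1 and 2, and 0.01 and -0.01 in the NC replicates. The 95% intervals of 29 members included 0, and for 33 members the whole interval lay within a 1.5-fold difference in either direction, on a scale that understates changes of low genes. The half-width of the interval was 0.15 at its narrowest, 0.21 at the median and 0.47 at its widest, for RAD54B. Tested members had 45 to 2038 reads in a library, with the fewest for RAD54B. Among other members the width did not simply follow the reads. ATM, with 672 to 1044 reads, had an interval of -0.28 to 0.24, and FANCE, with 128 to 157 reads, had -0.25 to 0.11.

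**Figure D1:**
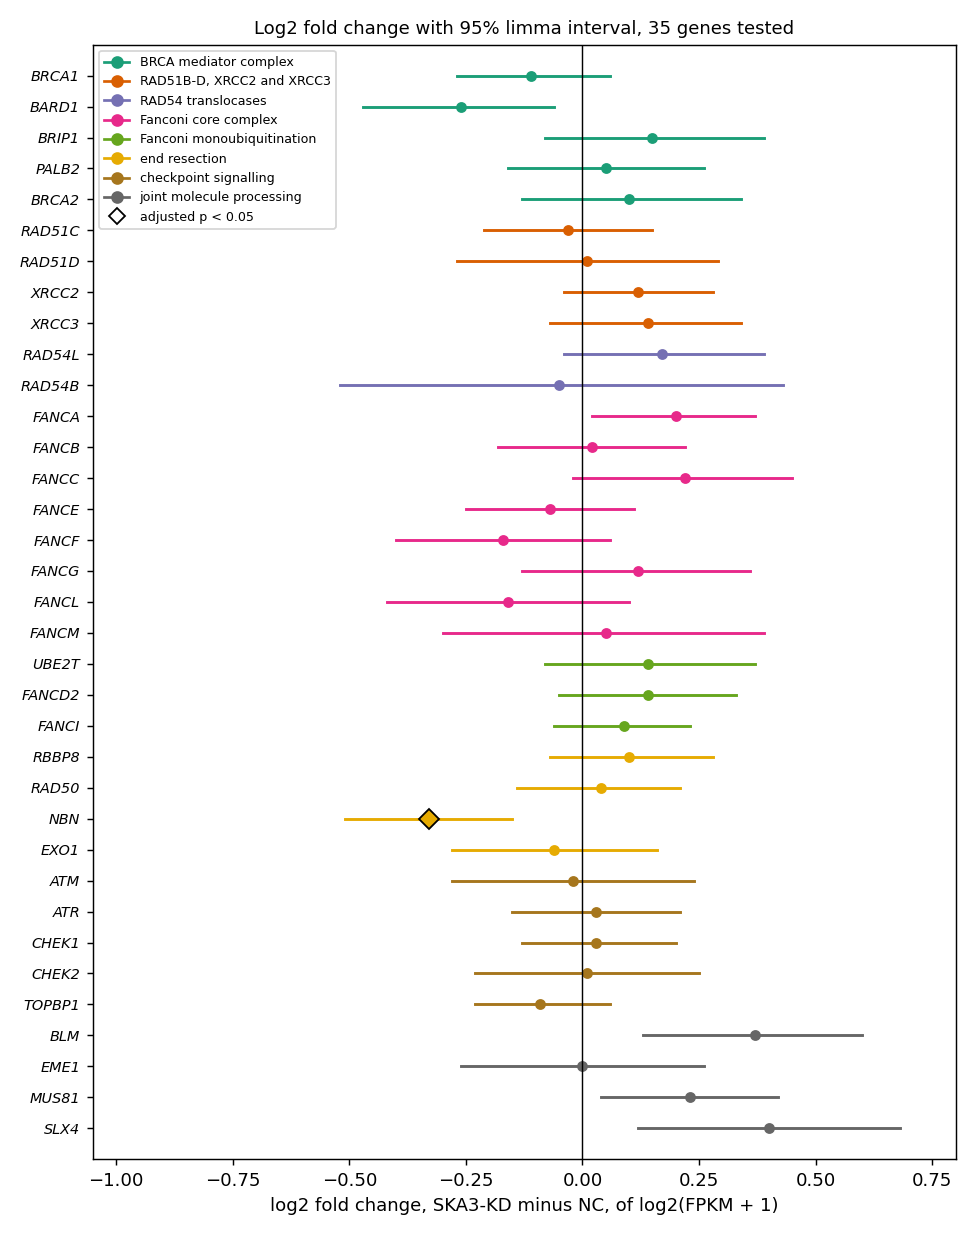
Log2 fold change (SKA3-KD minus NC) of log2(FPKM + 1) for the 35 members tested, ordered and coloured by role, with 95% limma intervals as horizontal lines; the diamond marks the member with an adjusted p under 0.05. NBN at -0.33 is the only diamond, and 29 of the 35 lines cross 0.

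FPKM is scaled by length, so levels are set beside each other between genes here, as a rough comparison only. Of the members, 20 fitted whole reads only at a length other than the annotated one. RAD50, XRCC3 and RAD54B share over 10% of their exon bases with other genes, as do several further members. UBE2T, the ubiquitin-conjugating enzyme of the Fanconi pathway, stood highest with a mean of 67.3 FPKM over the 4 libraries, followed by TOPBP1 (25.3 FPKM), EXO1 (23.0 FPKM) and FANCI (20.9 FPKM). In the order of the means, the ranges of neighbours over the 4 libraries were separate between UBE2T and TOPBP1, TOPBP1 and EXO1, FANCI and CHEK1, CHEK2 and FANCA, ATR and EME1, ATM and FANCF, BRCA2 and FANCM, and RAD54B and RAD51B, and they overlapped for all other neighbours. Of the tested members 29 lay between 2 and 20 FPKM, and the median was 7.05 FPKM, against 6.43 FPKM over all genes tested. The lowest were FANCM (1.55 FPKM), RAD54B (1.17 FPKM) and RAD51B, which was not tested and had 0.738 and 0.786 FPKM in the NC replicates against 0.631 and 0.680 FPKM in the SKA3-KD replicates. All RAD51B values were therefore lower in SKA3-KD than in NC, at a level below the limit for testing.

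Among the end resection genes NBN stood apart from its partners. NBN encodes nibrin, the subunit that brings the nuclease MRE11 and the ATPase RAD50 to broken ends and recruits ATM. NBN had 6.86 and 6.78 FPKM in the NC replicates 1 and 2, against 5.38 and 5.07 FPKM in the SKA3-KD replicates 1 and 2. Both SKA3-KD libraries lay below both NC libraries, and the mean fell by 23.4%, by more than the spread within either group. The log2 fold change was -0.33 (SE 0.07, 95% interval -0.51 to -0.15, limma adjusted p = 0.048), and it was -0.40 on the recovered reads (voom adjusted p = 0.00488), which numbered 505, 376, 337 and 368. The adjusted p of the FPKM test lay close to the threshold and exceeded it with all 4 libraries without a filter (0.119) and without a trend (0.0711), and when any 1 library was left out (0.133 to 0.198). The log2 fold change was -0.36 to -0.29 with a library left out.

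The partners of NBN did not follow it. RAD50 had 6.99, 6.91, 7.29 and 7.02 FPKM, given here and below with the NC replicates before the SKA3-KD replicates (log2 fold change 0.04, adjusted p = 0.755), and MRE11 had 17.6, 18.7, 17.9 and 17.5 FPKM (-0.03, adjusted p = 0.764). The ratio of NBN to RAD50 was 0.980 and 0.981 in the NC libraries and 0.738 and 0.722 in the SKA3-KD libraries. The ratio of NBN to MRE11 was 0.390 and 0.361 in NC and 0.301 and 0.289 in SKA3-KD. The groups did not overlap in either ratio, and these pairs and the others below were chosen after the values were seen and carry no test. RAD50 shares 79.7% of its exon bases with a read-through transcript on the same strand in GENCODE 29, so reads of the overlapping genes cannot be told apart, whereas NBN shares none. The other resection genes were RBBP8, which encodes CtIP and starts resection, with 8.67 to 9.78 FPKM and a log2 fold change of 0.10, and EXO1, the exonuclease that extends it, with 21.0 to 24.1 FPKM and a log2 fold change of -0.06. EXO1 overlapped between the groups and RBBP8 did not, and neither passed the test.

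**Figure D2:**
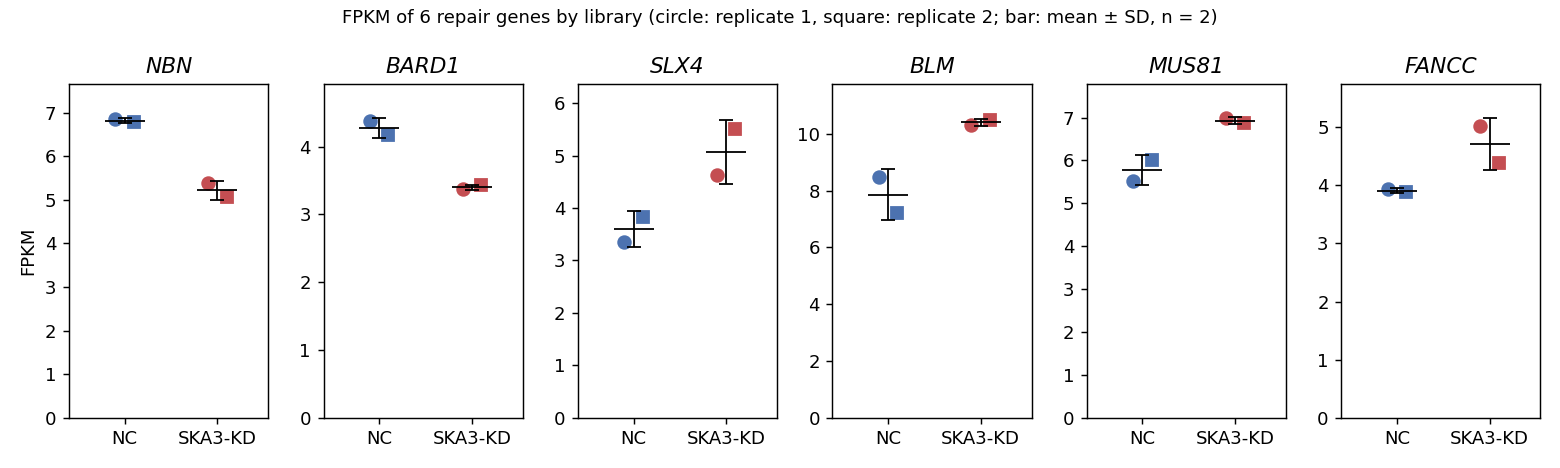
FPKM in each library for the member that passed the test, NBN, and the 5 further members with the largest absolute log2 fold change; circles and squares are replicates 1 and 2, blue is NC, red is SKA3-KD, and black bars are mean ± SD (n = 2), on axes that start at 0. In every panel both red points lie on one side of both blue points, below for NBN and BARD1 and above for the other 4 genes.

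The joint molecule genes held the 3 largest positive fold changes of the set on the log2(FPKM + 1) scale. SLX4, the scaffold that brings nucleases to branched DNA, had 3.36 and 3.83 FPKM in NC against 4.64 and 5.50 FPKM in SKA3-KD. Its groups did not overlap, although the SKA3-KD libraries differed from each other by more than the NC libraries did. The log2 fold change was 0.40 (SE 0.11, 95% interval 0.12 to 0.68), and it did not pass the FPKM test (adjusted p = 0.0777) but passed the test on reads (log2 fold change 0.49, voom adjusted p = 0.00241). BLM, the helicase that dissolves joined molecules, had 8.49 and 7.21 FPKM in the NC libraries against 10.3 and 10.5 FPKM after knockdown. The SKA3-KD libraries lay closer together than the NC libraries, and above both. Its log2 fold change was 0.37 (SE 0.09, 95% interval 0.13 to 0.60), with an adjusted p of 0.0633 in limma on FPKM and 0.00465 in voom. On GRCh38 (GENCODE 29) BLM spans chromosome 15 from 90717327 to 90816165 on the plus strand and shares no exon base with another annotated gene, and SLX4 spans chromosome 16 from 3581181 to 3611598 on the minus strand and shares 3.8% of its exon bases.

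BLM acts in a complex with TOP3A, RMI1 and RMI2, and these partners did not have higher values with it. TOP3A had 7.25, 7.71, 6.05 and 6.58 FPKM (log2 fold change -0.21, adjusted p = 0.138), RMI1 had 10.2, 8.93, 8.30 and 9.22 FPKM (-0.11, adjusted p = 0.467), and RMI2 had 12.7, 12.8, 10.7 and 9.04 FPKM (-0.34, adjusted p = 0.0759). The values of TOP3A and RMI2 were lower in both SKA3-KD libraries, and those of RMI1 overlapped; of these, RMI2 passed the test on reads (voom adjusted p = 0.0121). The ratio of BLM to TOP3A was 1.17 and 0.935 in NC and 1.70 and 1.59 in SKA3-KD. The ratio of BLM to RMI2 was 0.666 and 0.563 in NC and 0.959 and 1.16 in SKA3-KD.

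MUS81 and EME1 encode the catalytic and regulatory subunits of a structure-specific nuclease. MUS81 had 5.52 and 6.02 FPKM in NC against 6.98 and 6.88 FPKM in SKA3-KD, without overlap, and its log2 fold change of 0.23 (95% interval 0.04 to 0.42) did not pass the test (limma adjusted p = 0.113). EME1 had 4.59, 5.56, 4.98 and 5.12 FPKM, with both SKA3-KD values between the NC values, and a log2 fold change of 0.00 (95% interval -0.26 to 0.26). The ratio of MUS81 to EME1 was 1.2 and 1.08 in NC and 1.40 and 1.34 in SKA3-KD. MUS81 shares 14.1% and EME1 16.4% of its exon bases with genes on the opposite strand, and whether counting used strand was not given in the sources used here.

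**Figure D3:**
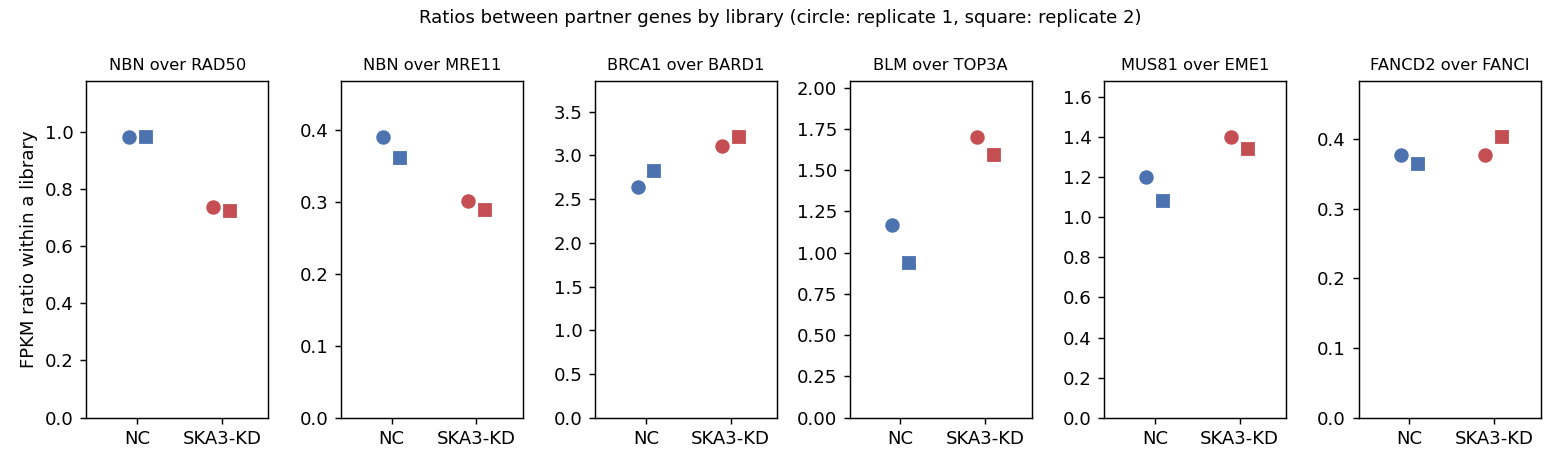
Ratio of the FPKM values of partner genes within each library (no unit), with circles and squares for replicates 1 and 2, blue for NC and red for SKA3-KD, on axes that start at 0. NBN over RAD50 falls from 0.980 and 0.981 to 0.738 and 0.722, whereas FANCD2 over FANCI overlaps between the groups at 0.365 to 0.403.

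Of the 5 genes of the BRCA mediator complex none passed the FPKM test. BARD1, which joins BRCA1 to form an active ubiquitin ligase, had 4.38 and 4.17 FPKM in NC against 3.37 and 3.43 FPKM in SKA3-KD. The groups were separated by more than the spread within either, and the log2 fold change was -0.26 (SE 0.08, 95% interval -0.47 to -0.06, limma adjusted p = 0.10). On recovered reads it was -0.35 (voom adjusted p = 0.0317). BARD1 spans chromosome 2 from 214725646 to 214809711 on the minus strand of GRCh38 and shares no exon base with another annotated gene. BRCA1 had 11.6, 11.8, 10.5 and 11.0 FPKM, also lower in both SKA3-KD libraries, with a smaller log2 fold change of -0.11 (adjusted p = 0.311), and the ratio of BRCA1 to BARD1 was 2.64 and 2.82 in NC and 3.11 and 3.21 in SKA3-KD. The other 3 leaned upward without passing: BRIP1, a helicase bound to BRCA1, at 0.15, BRCA2, the central mediator, at 0.10 (2.66, 2.59, 2.94 and 2.85 FPKM), and PALB2, which bridges BRCA1 and BRCA2, at 0.05 on the log2 scale. Reads of BRCA1 may be split with its pseudogene.

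The paralog genes RAD51B, RAD51C, RAD51D, XRCC2 and XRCC3 and the RAD54 genes showed no call in either test, RAD51B being untested. The paralog proteins form complexes that act early in strand invasion, and their log2 fold changes ran from -0.03 for RAD51C to 0.14 for XRCC3, with RAD51D at 0.01 and XRCC2 at 0.12. XRCC2 was the most abundant of them at 13.7 and 13.6 FPKM in NC and 15.2 and 14.6 FPKM in SKA3-KD. XRCC3 shares 76.7% of its exon bases with KLC1 on the opposite strand, and its value is uncertain for that reason. The RAD54 translocases, which move along DNA to aid strand invasion, had log2 fold changes of 0.17 for RAD54L (7.21, 6.53, 8.20 and 7.55 FPKM) and -0.05 for RAD54B (1.49, 0.940, 1.15 and 1.12 FPKM). RAD54B shares 59.1% of its exon bases with FSBP on the same strand, and RAD54L 25.1% with LRRC41 on the opposite strand.

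The Fanconi core complex, the 8-gene ubiquitin ligase and anchor that recognises stalled forks, was mixed in direction, with a median log2 fold change of 0.03. FANCC had 3.94 and 3.88 FPKM in NC against 5.03 and 4.39 FPKM in SKA3-KD, a log2 fold change of 0.22 (95% interval -0.02 to 0.45, limma adjusted p = 0.182). FANCA had 10.4, 11.3, 12.6 and 12.6 FPKM, and its log2 fold change of 0.20 had an interval of 0.02 to 0.37 and an adjusted p of 0.133. In both genes the SKA3-KD libraries lay above the NC libraries. FANCF, an adaptor, and FANCL, the ligase subunit, had the most negative values of the complex, -0.17 and -0.16, and FANCF did not overlap between groups (3.23 and 3.12 against 2.64 and 2.77 FPKM) while FANCL did. The remaining FANCB, FANCE, FANCG and FANCM lay between -0.07 and 0.12. FANCA shares 23.6%, FANCL 19.7% and FANCF 11.3% of their exon bases with genes on the opposite strand.

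The genes of the monoubiquitination step, which the core complex acts on, were all slightly above 0. UBE2T had 60.8, 67.0, 75.1 and 66.2 FPKM, with overlap between the groups, and a log2 fold change of 0.14 (adjusted p = 0.330). FANCD2 had 7.71, 7.34, 8.09 and 8.70 FPKM (0.14, adjusted p = 0.260) and its partner FANCI had 20.4, 20.1, 21.4 and 21.6 FPKM (0.09, adjusted p = 0.366), both higher in SKA3-KD than in NC without overlap. The ratio of FANCD2 to FANCI was 0.378, 0.365, 0.377 and 0.403, with no separation of the groups. Reads of FANCD2 and CHEK2 may be split with near-identical pseudogenes.

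The checkpoint members had log2 fold changes from -0.09 to 0.03. ATM, the kinase activated by broken ends, had 3.91, 3.34, 3.41 and 3.70 FPKM, and ATR, the kinase activated by single-stranded DNA, had 5.79, 5.74, 6.03 and 5.79 FPKM, its groups separated only beyond the digits shown. Their effector kinases had 15.1, 14.6, 14.8 and 15.6 FPKM for CHEK1 and 14.7, 12.9, 14.7 and 13.0 FPKM for CHEK2. TOPBP1, an activator of ATR, was lower in both SKA3-KD libraries, with 26.1 and 26.1 FPKM in NC and 24.2 and 24.9 FPKM in SKA3-KD, although its log2 fold change of -0.09 did not pass the test (adjusted p = 0.352). The 95% intervals were -0.13 to 0.20 for CHEK1, -0.15 to 0.21 for ATR, -0.23 to 0.25 for CHEK2 and -0.28 to 0.24 for ATM. ATR shares 16.4% of its exon bases with a gene on the opposite strand.

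Genes that work with these members were taken from a list of partners. Of the 49 recombination and Fanconi partners tested, 1 was lower and 2 were higher at an adjusted p under 0.05, with a median log2 fold change of 0.00 (limma; on reads, 7 lower and 5 higher). These are 2.04% lower and 4.08% higher, against 6.11% and 6.16% of all genes, and on reads 14.3% and 10.2%, against 13.4% and 13.0%. SFR1, a recombination accessory factor, fell from 4.82 and 5.04 FPKM to 3.46 and 2.95 FPKM (log2 fold change -0.50, 95% interval -0.75 to -0.25, adjusted p = 0.0374). TONSL, which aids recombination at replication forks, rose from 4.53 and 5.09 FPKM to 7.16 and 7.42 FPKM (log2 fold change 0.51, 95% interval 0.30 to 0.72, adjusted p = 0.0259), while its binding partner MMS22L had 1.88 and 1.63 against 1.51 and 1.42 FPKM (-0.16, adjusted p = 0.451; -0.29 and 0.0498 in voom). MAD2L2, a subunit of the shieldin complex that limits resection and of a translesion polymerase, rose from 21.7 and 21.5 FPKM to 27.8 and 29.2 FPKM (log2 fold change 0.39, adjusted p = 0.0249). None of these 3 groups of values overlapped, and each call was lost when any 1 library was left out (adjusted p from 0.0622 to 0.140). With all 4 libraries they were also lost without a filter (SFR1 0.118, TONSL 0.0842 and MAD2L2 0.064) and without a trend for SFR1 (0.0574) and MAD2L2 (0.0576). RNF168, a ubiquitin ligase at damaged chromatin, lay just outside the threshold (10.8 and 10.7 against 8.12 and 8.82 FPKM, adjusted p = 0.0501).

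Of 13 checkpoint partners tested 3 were higher and 0 lower on FPKM (limma), and 4 were higher and 0 lower on reads (voom). The higher shares were 23.1% on FPKM, against 6.16% of all genes, and 30.8% on reads, against 13.0%. At an unadjusted p under 0.05 in limma on FPKM 5 were higher and 0 lower, where 31.3% of all genes passed in either direction. RAD17, which loads the checkpoint clamp that activates ATR, rose from 5.20 and 5.09 FPKM to 7.35 and 6.75 FPKM (log2 fold change 0.39, adjusted p = 0.0388). Its clamp, made of RAD9A, RAD1 and HUS1, had log2 fold changes of -0.18, 0.02 and 0.11 with no call. WEE1, the kinase that holds back entry into mitosis downstream of CHEK1, rose from 5.94 and 5.43 FPKM to 9.42 and 8.35 FPKM (log2 fold change 0.56, adjusted p = 0.0255). CDC25B, the phosphatase that opposes it, rose from 26.9 and 28.9 FPKM to 42.1 and 39.1 FPKM (log2 fold change 0.52, adjusted p = 0.0196). The groups did not overlap for these 3 genes, and each call was lost when any 1 library was left out (adjusted p from 0.0548 to 0.166). Without a filter they were lost too (RAD17 0.107, WEE1 0.0842 and CDC25B 0.0647), as were RAD17 (0.0632) and WEE1 (0.0513) without a trend.

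Other repair and cell cycle lists give the surroundings, to be read against 6.11% of all genes called lower and 6.16% called higher. Counts at an unadjusted p under 0.05 are to be read against 31.3% of all genes, in either direction (limma on FPKM). In end joining 0 of 9 genes and in mismatch repair 0 of 7 genes passed in limma on FPKM or in voom, and 0 did at an unadjusted p under 0.05, with medians of 0.03 and 0.07 on the log2 scale. In nucleotide excision repair 1 of 15 was lower (XPA, -0.34) and 3 were higher (20%, among them ERCC2 at 0.56 and GTF2H3 at 0.48). Among 37 DNA replication genes 3 were lower and 3 higher (8.11% each), with a median of 0.01 (9 and 6 at an unadjusted p under 0.05). In voom 7 of them were lower (18.9%, against 13.4% of all genes) and 3 higher (8.11%, against 13.0%). Among 20 genes of G2 and mitosis 11 were higher (55.0%) and 0 lower (16 and 0 at an unadjusted p under 0.05), with a median of 0.37, led by PLK1 (0.76) and CCNB1 (0.64). In voom 15 of these were higher (75.0%, against 13.0% of all genes) and 0 lower. In bulk RNA a different share of cells in a phase and a different amount of RNA per cell cannot be told apart, and the part of the G2 and mitosis difference in the BLM, SLX4, WEE1 and CDC25B values was not tested.

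**Figure D4:**
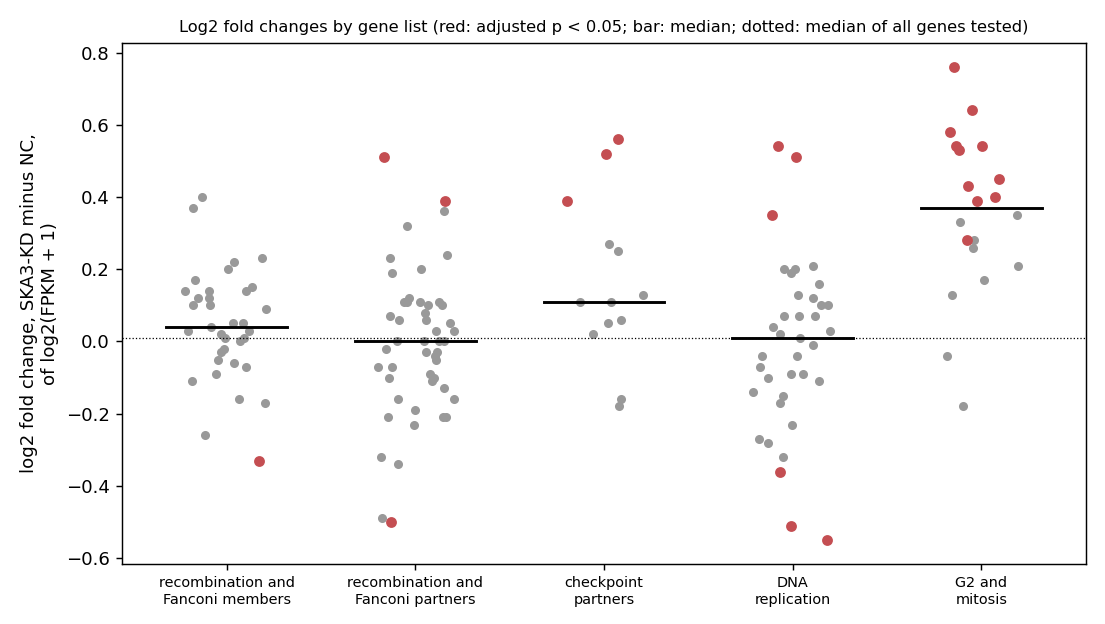
Log2 fold change (SKA3-KD minus NC) of log2(FPKM + 1) for each tested gene of 5 lists; red points have an adjusted p under 0.05, black bars are list medians, horizontal jitter has no meaning and the dotted line is the median of all genes tested. The recombination and Fanconi members lie around 0 (median 0.04, 1 red point), as do their partners (median 0.00), while the G2 and mitosis genes have a median of 0.37 and 11 red points.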

How the data were processed

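RNA from 4 TU-177 libraries was sequenced, and the authors deposited FPKM values per Ensembl gene for each library. The submitters' processing notes name Bowtie2 2.2.8, HISAT2, StringTie 1.3.1, Cuffdiff 2.1.1 and the build hg19, without roles, and strand use in counting is not given in the sources used here. Columns were matched to libraries by title. The members and lists were chosen with earlier results of these data known. A gene of the partner list is not reported here and was left out of that list's counts. Genes with a mean of at least 1 FPKM (12645 of 28729) were tested on log2(FPKM + 1) with limma 3.58.1 in R 4.3.3 (empirical Bayes with a mean-variance trend, two-sided, Benjamini-Hochberg over all genes tested, adjusted p under 0.05), a fold change on that scale understating the change of low genes.

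FPKM values rise in steps of 1 read, which gave back the depth. Values came out as whole reads within 0.02 for 69.0% of the genes above 0 at the merged exon length of GENCODE 29, and for 94.7% (96.6% of genes tested) when any length was allowed. Of the members, 16 were recovered at the annotated length and 20 at another length, as the smallest whole numbers in proportion, so their read counts are lower limits. The recovered reads were tested with limma voom, which called 1640 genes lower and 1591 higher of 12241. Replicates differed by more than sampling noise (chi-square per degree of freedom 3.67 in NC and 3.64 in SKA3-KD), so none was counted as a repeat of another. The fits were also run on simulated counts in which every gene had the same extra spread, which genes in these libraries need not share. No result here rests on that run.

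As alternatives, the pseudocount was set to 0.1, the filter was dropped or raised to a minimum mean of 5 FPKM, and median-of-ratios scaling (factors 0.993 to 1.007), quantile normalization, a fit without the trend, a replicate block, voom and leaving out each library were tried. Members past the threshold and the 5 others with the largest absolute log2 fold change were given in every library, as were partners past the threshold; further members and partners were given after their values were seen. Gene coordinates, exon overlaps (22 of 36 members share exon bases with another gene, 10 of them over 10%) and RefSeq sequences are on GRCh38, are not those of the hg19 processing, and were joined by identifier or symbol. GENCODE 29 held 27199 of the gene identifiers. Python 3.11.15 was used for summaries and figures.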

Additional observations from a re-analysis of the deposited data

How the results depend on the processing

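The count of lower members was 1 with a pseudocount of 0.1, a minimum mean of 5 FPKM, median-of-ratios scaling and quantile normalization. It was 0 without a filter and without a trend, 0 with the replicate block and 2 in voom. The count of higher members was 1 with a minimum mean of 5 FPKM (BLM; 13.6% of all genes higher and 12.1% lower), 1 with the replicate block (SLX4; 7.92% and 7.63%), 2 in voom and 0 otherwise. Leaving out each library gave 0 to 0 lower members, and a median log2 fold change of the members of 0.03 to 0.08. SKA3 kept its direction (-1.14 to -1.04 without a library), with an adjusted p of 0.0689 without NC 1 and under the threshold otherwise. Over all genes the calls were 772 lower and 779 higher, against 81 and 48 without a filter, 381 and 312 without a trend and 1640 and 1591 in voom; without NC 1 there were 0 and 0, without NC 2 131 and 82, without SKA3-KD 1 82 and 31 and without SKA3-KD 2 115 and 42. Leaving out a library leaves a lone sample that is assumed to vary like the other group, and a lost call there does not show a smaller difference. Replicate numbers share no stated culture, and the deviations of replicates correlated at 0.097 over genes, so the block is reported only here (adjusted p 0.054 for NBN and 0.0512 for SFR1). Signs of members near 0 changed. In voom RAD51D was -0.02 and CHEK2 -0.01. With a library left out, RAD51C ran from -0.08 to 0.02, RAD54B from -0.23 (without NC 2) to 0.14 (without NC 1), ATM from -0.11 to 0.07, RAD51D from -0.09 to 0.11, FANCM from -0.01 to 0.10, CHEK2 from -0.08 to 0.09, FANCB from -0.02 to 0.06, PALB2 from -0.01 to 0.11 and EXO1 from -0.15 to 0.04. EME1, at 0.00 in the main fit, ran from -0.12 (without NC 1) to 0.11 (without NC 2). None of these values passed the threshold, and the cause was not tested. Tested members had as few as 45 reads in a library, for RAD54B.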

Other observations

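The test on recovered reads called partner genes that the test on FPKM did not. Besides RMI2 and MMS22L above, RNF168 (voom adjusted p = 0.00543) and SMC5 (0.0485) were called lower on reads alone. RECQL4 (voom adjusted p = 0.0372) and, among the checkpoint partners, CDC25A (0.0438) were called higher on reads alone. The groups overlapped for RECQL4, with 9.5 and 13.3 FPKM in NC against 13.3 and 15.3 FPKM in SKA3-KD (limma adjusted p = 0.258). They did not overlap for CDC25A. The other partners called on reads alone bind the Fanconi core complex and are given here as values chosen after they were seen. Among small proteins bound to the Fanconi core complex, FAAP24, which helps FANCM bind DNA, had 6.38 and 5.48 FPKM in NC and 4.31 and 3.58 FPKM in SKA3-KD (adjusted p = 0.0564 in limma on FPKM, 0.00792 in voom). CENPX, a histone-fold protein that also binds FANCM, had 88.8 and 82.0 FPKM against 70.1 and 74.9 FPKM (0.0929 and 0.0192). In the other direction, FAAP100 had 5.11 and 6.25 FPKM against 6.52 and 8.65 FPKM (0.188 and 0.0209), and FAAP20 had 2.57 and 2.91 FPKM against 3.61 and 3.22 FPKM (0.192 and 0.0411). FANCM itself had 1.61 and 1.41 FPKM against 1.68 and 1.5 FPKM, with overlap between the groups. CENPS, the partner of CENPX, had 2.87 and 2.72 FPKM against 2.92 and 3.26 FPKM (limma adjusted p = 0.494).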
